A study of Bos grunniens with 12 samples.

Results

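Kinesin motor genes were examined in the testes of 3 yaks of 1.5 years and 3 yaks of 5 years. The members were the genes of the deposited expression table whose symbol starts with KIF and a digit, KIFC, KIFAP, or KLC and a digit. The rule found 60 of the 20953 rows of the table, under 37 symbols. Each animal gave a library of RNA fragments bound by an antibody against m6A (IP) and a library of the fragments before this step (input), 12 libraries in all, and the expression values are those of the 6 input libraries. The younger animals were healthy 1.5-year-old yaks titled 18M, described by the authors as not yet sexually mature, whose testes were removed by castration. The older animals were healthy 5-year-old yaks titled 5Y, described as sexually mature, whose testes were taken after the animals were killed. Age and the way of collection therefore cannot be told apart. No treatment or genetic change is given for either age. Tissue of both ages came from the same location, and poly(A) RNA of whole testis holds that of germ cells and somatic cells together.

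Kinesins are motor proteins that use ATP to move along microtubules or to shorten them. In the testis they are known to work in the meiotic and mitotic spindle, in the microtubule structures that shape the spermatid head, and in building the sperm flagellum by intraflagellar transport (IFT). Light chains and accessory proteins, such as KLC3 and KIFAP3, link the motors to their cargo.

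The direction of every change depends on which samples are the older ones. Ages were taken from the titles and the growth protocol, while the stage field of the same record names the opposite stage, and the group letters Y and M are exchanged between the record and the methods. If the stage field were right, every direction given here would be exchanged. Late spermatid genes were present in all 6 input libraries and higher in those titled 18M. This is at odds with the description of the animals titled 18M as not yet sexually mature, and the conflict was not resolved. The FPKM (fragments per transcript length and library size) summed over 4 elongating spermatid genes with a row in the table lay between 1154 and 1195 in the 1.5-year-old yaks, and was 263, 849 and 731 in replicates 1, 2 and 3 of the 5-year-old yaks. Over 6 Sertoli cell genes it lay between 73.7 and 86.6 at 1.5 years and was 257, 108 and 135 at 5 years. In both sums replicate 1 of the 5-year-old yaks lay furthest from the younger animals and replicate 2 nearest. TNP1 held the largest part of the first sum and INHA that of the second. In 6 round spermatid genes, replicates 1 and 3 both lay well below the younger mean (median log2 differences -2.05 and -1.51). Replicate 2 was at -0.17 in these genes. In bulk tissue, fewer cells of a type and less RNA per cell cannot be told apart, and the part of cell composition in the kinesin values was not tested.

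Of the 37 kinesin symbols, 26 stood on a single row and 11 on several rows, 34 rows in all. For 6 of these 11 symbols, a row with a kinesin or microtubule term in its deposited Gene Ontology (GO) annotation could be chosen, and it was the lowest identifier of the symbol in all 6. The remaining rows of these 6 symbols numbered 13, of which 1 carried such a term, a second KIF7 row listed at 0 in every library. A KIF1A row, for instance, was annotated to the mitochondrial ATP synthase and a KIF26A row to actin binding. For the other 5 symbols (KIF23, KIF3A, KIF5B, KIF5C and KIF9, 15 rows) no row carried such a term. They were left out of the counts, and their values are given apart. This left 32 kinesin genes with 1 row each. Of the 26 symbols on a single row, 16 carried a kinesin or microtubule term. The others, among them KIF11, KIF15, KIF21A, KIF27 and KIFAP3, were kept by their symbol alone. A further 15 rows under symbols of other genes carried the GO term kinesin complex, and were not members by the rule. In the function lists, 10 family symbols, among them KIF2A, KIF20B, KLC1 and KLC2, had no row under their name and were not analysed here.

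**Figure D1:**
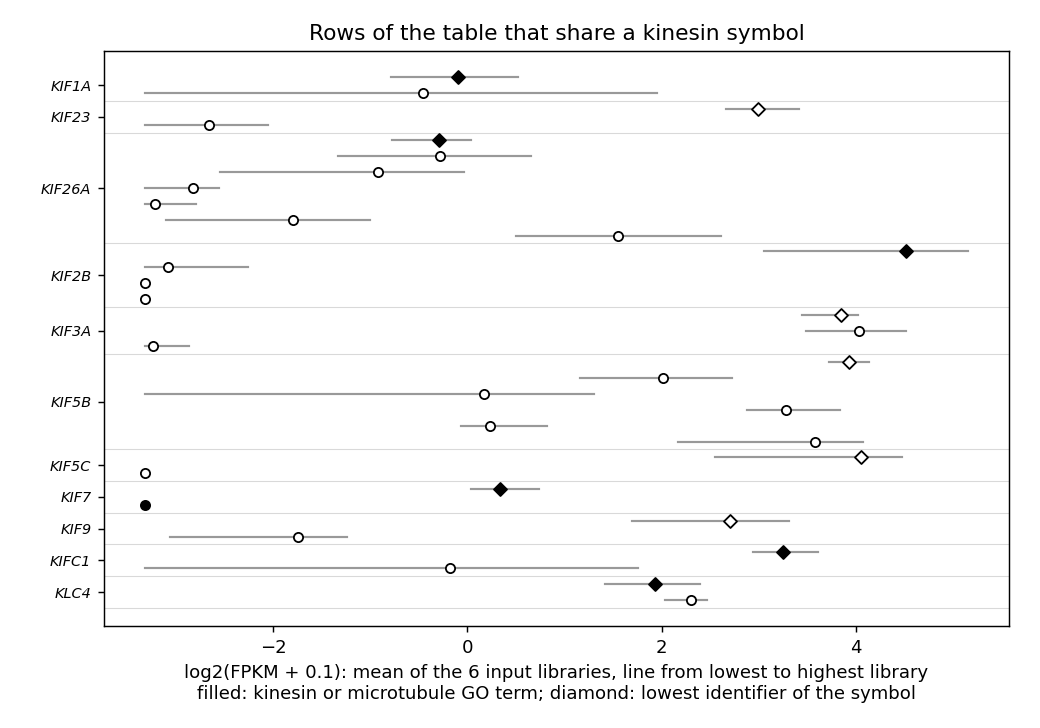
Rows of the 11 kinesin symbols that stand on several rows, on a log2(FPKM + 0.1) axis. Each marker is the mean of the 6 input libraries and each line runs from the lowest to the highest library. Filled markers carry a kinesin or microtubule GO term, and diamonds are the lowest identifier of the symbol. All 6 chosen rows are diamonds, and the 7 KIF26A rows and 6 KIF5B rows spread over different levels.

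The kinesin genes were expressed over a wide range. Of the 32 genes, 10 had a mean of at least 10 FPKM over the 6 libraries, 16 lay from 1 to 10 FPKM, 5 lay from 0.5 to 1 FPKM, and KIF26B, an atypical kinesin of the KIF26 family, stayed under 0.5 FPKM. The median of the gene means was 4.96 FPKM. KIF17 alone held between 34.3% and 36.1% of the summed kinesin FPKM in the 1.5-year-old yaks, and 24.03%, 32.0% and 29.7% in replicates 1, 2 and 3 of the 5-year-old yaks. The sum over the 32 genes was 467, 425 and 448 FPKM in replicates 1, 2 and 3 at 1.5 years, against 211, 391.7 and 319 FPKM at 5 years.

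**Figure D2:**
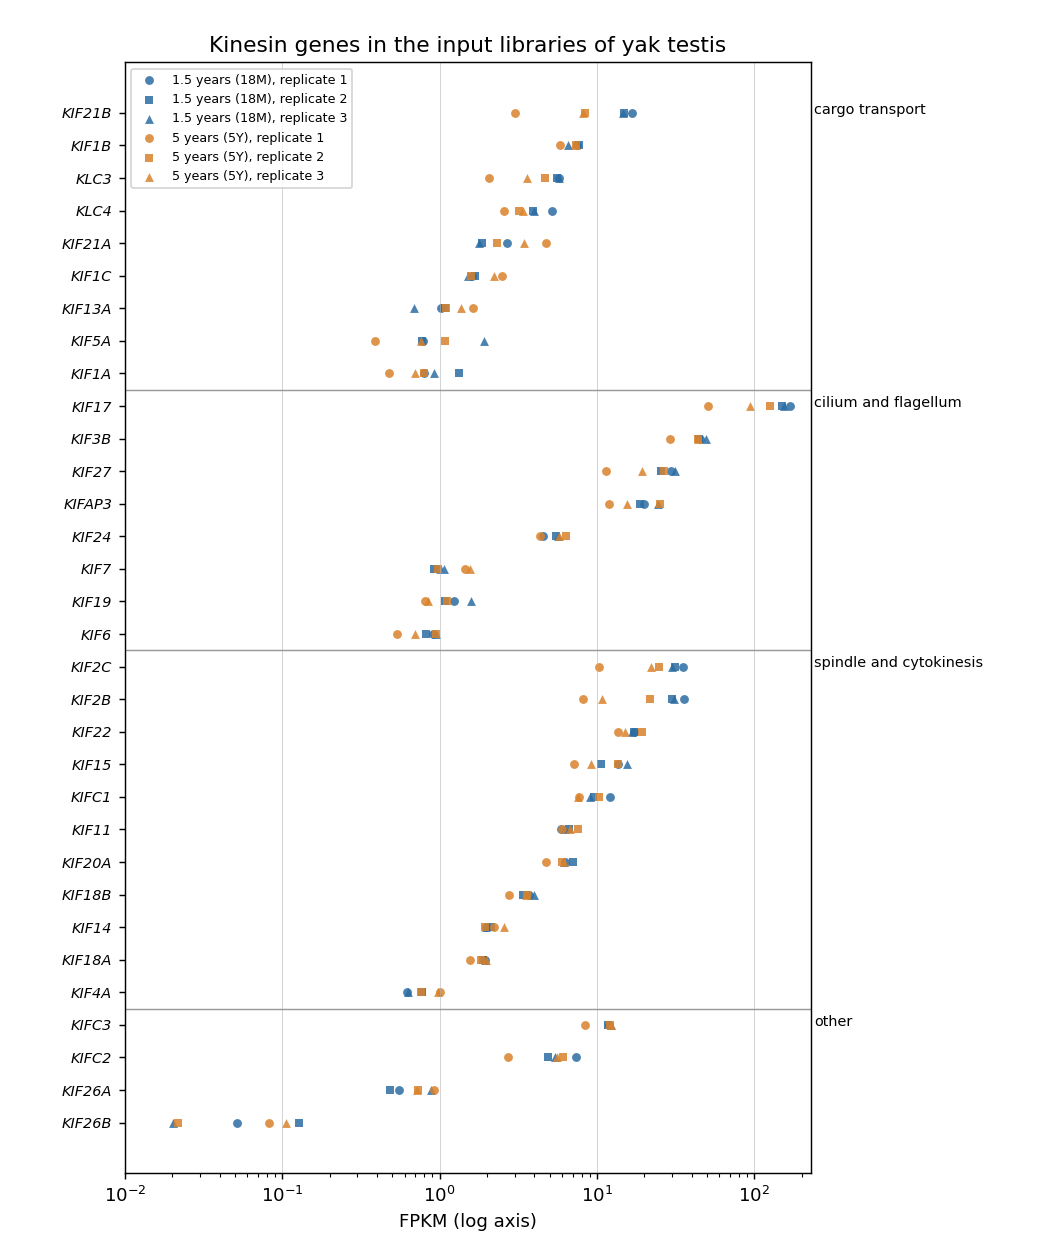
FPKM of the 32 kinesin genes in each input library, on a log axis, grouped by function. Blue markers are the 1.5-year-old yaks and orange markers the 5-year-old yaks, with circles, squares and triangles for replicates 1, 2 and 3. KIF17 has the highest level in every library. The orange circle is the lowest marker for 22 genes of the plot, among them KIF21B, KIF2B and KIF2C (68.8%, against 35.5% of all genes tested).

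The ages were compared with limma on log2(FPKM + 0.1) across all 12437 genes with a mean of at least 0.5 FPKM, which kept 31 of the 32 kinesin genes. Positive log2 fold changes are higher at 5 years, and all changes are on the log2(FPKM + 0.1) scale, which understates those of low genes. No kinesin gene reached an adjusted p-value under 0.05 (limma, Benjamini-Hochberg), as did 0.0322% of all genes tested. Before adjustment, the p-value was under 0.05 for 6 kinesin genes. All 6 were lower at 5 years, or 19.4% of the kinesin genes against 10.9% of all genes tested. None was higher, against 14.2% of all genes. The libraries of the 2 ages did not overlap in 8 kinesin genes that were lower at 5 years (25.8%, against 13.9% of all genes) and in 1 that was higher (3.23%, against 19.8%). The estimated change was below 0 in 22 of 31 kinesin genes (46.5% of all genes tested were below 0). It was 23 with median scaling, where KIF24 turned negative, and 21 with quantile normalization, where KIF22 turned positive. Without replicate 1 of the 5-year-old yaks it was 18, with KIF1B, KIF22, KIFC2 and KIFC3 turned positive. The median log2 fold change of the kinesin genes was -0.27, or -0.08 without that library. That of all genes tested was 0.04, or 0.05 without that library, -0.01 with median scaling and 0.03 with quantile normalization. The share of all genes below 0 was not computed for these other settings. When each library was scaled to the same median, 13.6% of all genes were lower and 11.6% higher, and 7 kinesin genes were lower and none higher, with KIF27 joining the 6 above. The count moved when single animals were left out. Without replicates 1, 2 and 3 of the 1.5-year-old yaks, lower kinesin genes numbered 2, 3 and 3 of 31. The shares of all genes were 5.15%, 7.18% and 4.99%. KIF21B and KIF2B were among the lower kinesin genes each time. Without replicate 2 of the 5-year-old yaks 9 of 31 were lower and 3 higher, against 18.3% and 21.8% of all genes. In that setting 6 of the 31 kinesin genes (19.4%) had an adjusted p-value under 0.05, near the share of all genes (20.3%). These 6 were KIF2B, KLC3, KIF17, KIF21B and KIF27, all lower, and KIF21A, which was higher. Without replicate 1 of the 5-year-old yaks instead, 0.0486% of all genes had an adjusted p-value under 0.05.

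**Figure D3:**
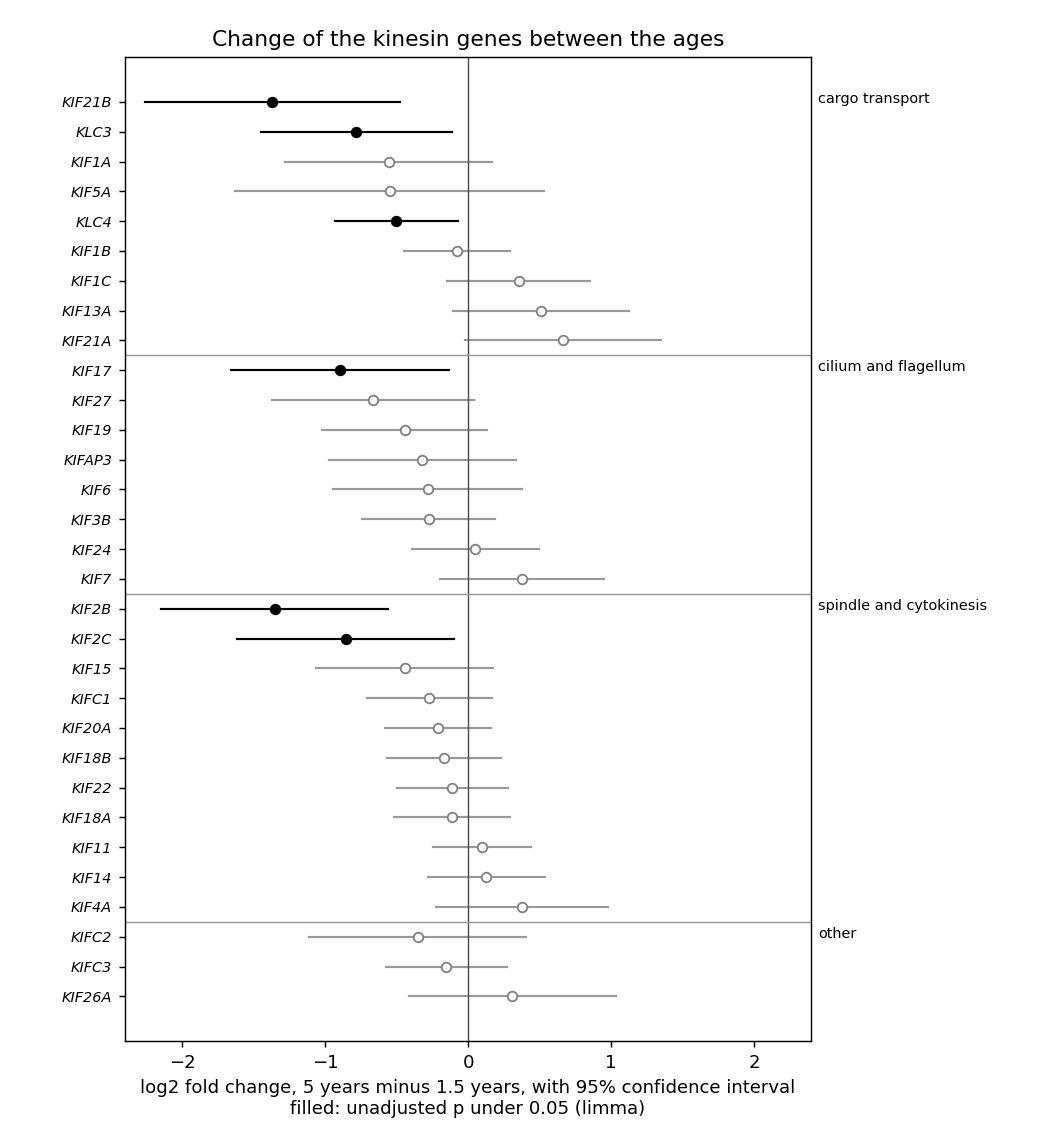
Log2 fold change of the 31 tested kinesin genes between the ages, 5 years minus 1.5 years, with 95% confidence intervals from limma. Filled points have an unadjusted p-value under 0.05 and are KIF21B, KLC3, KLC4, KIF17, KIF2B and KIF2C, all of them below 0. The adjusted p-value was at least 0.154 for every gene shown.

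Of the 8 tested genes of the cilium and flagellum, 1 was lower at 5 years with an unadjusted p-value under 0.05 (12.5%, against 10.9% of all genes). This was KIF17, the kinesin with the highest mean. It is a homodimeric kinesin-2 motor that moves cargo in cilia and dendrites and is known in spermatids as a partner of the transcriptional coactivator ACT. KIF17 (ENSBGRG00000000228) was at 169, 151 and 154 FPKM in replicates 1, 2 and 3 of the 1.5-year-old yaks and at 50.7, 125 and 94.6 FPKM in those of the 5-year-old yaks. All older animals lay below all younger ones, and the highest of the older animals was 2.47 times the lowest. The mean was 158 ± 9.63 FPKM (SD, n = 3) against 90.2 ± 37.5 FPKM (SD, n = 3), a log2 fold change of -0.90 (standard error 0.32, limma adjusted p = 0.168). Without replicate 1 of the 5-year-old yaks the log2 fold change was -0.53.

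The heterotrimeric kinesin-2 motor carries IFT trains toward the tip of the flagellum, and its KIF3B subunit was the kinesin with the next highest mean. KIF3B (ENSBGRG00000017825) was at 45.1, 44.8 and 49.6 FPKM at 1.5 years and at 29.3, 44.0 and 43.8 FPKM at 5 years. The ages did not overlap, but replicates 2 and 3 of the older yaks lay just below the lowest younger one. The log2 fold change was -0.28 (95% confidence interval -0.74 to 0.19), did not pass the unadjusted test, and was -0.08 without replicate 1 of the 5-year-old yaks. KIFAP3 (ENSBGRG00000005284), the adaptor of the same trimer, was at 19.99, 18.9 and 24.6 FPKM at 1.5 years and at 12, 25.3 and 15.6 FPKM at 5 years. Here replicate 2 of the older yaks was the highest of the 6 libraries, and the ages overlapped.

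KIF27 (ENSBGRG00000003572), a kinesin-4 protein known from motile cilia, was at 29.6, 25.5 and 31.4 FPKM at 1.5 years and at 11.4, 26.7 and 19.4 FPKM at 5 years. Its log2 fold change was -0.66 (95% confidence interval -1.37 to 0.04), and replicate 2 of the older yaks lay within the younger range. Without replicate 1 of the older yaks it was -0.33. The other genes of this group were low and overlapped between the ages. KIF24, which acts at the mother centriole, had a mean of 5.36 FPKM over the 6 libraries. KIF7, which sits at the tip of the primary cilium in Hedgehog signalling, had a mean of 1.16 FPKM, KIF19, which shortens ciliary microtubules, 1.11 FPKM, and KIF6 0.811 FPKM. Their log2 fold changes lay between -0.44 for KIF19 and 0.38 for KIF7.

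Of the 11 tested spindle and cytokinesis genes, 2 were lower at 5 years with an unadjusted p-value under 0.05 (18.2%, against 10.9% of all genes). Both belong to the kinesin-13 family, which shortens microtubules from their ends. KIF2B (ENSBGRG00000020913), a kinetochore depolymerase, was at 35.5, 30.0 and 30.9 FPKM at 1.5 years and at 8.22, 21.8 and 10.8 FPKM at 5 years. All older libraries lay below all younger ones, with replicate 2 again nearest to the younger animals. The mean was 32.1 ± 2.97 FPKM (SD, n = 3) against 13.6 ± 7.21 FPKM (SD, n = 3), with a log2 fold change of -1.35 (standard error 0.34, limma adjusted p = 0.154). The symbol stands on 4 rows, and the other 3 were listed at 0 in at least 5 libraries each.

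KIF2C (ENSBGRG00000004061), also called MCAK and active at centromeres, was at 35.2, 31.6 and 30.1 FPKM at 1.5 years and at 10.3, 24.7 and 22.0 FPKM at 5 years. The older libraries again lay below the younger ones, and replicate 1 was far below the other two. The log2 fold change was -0.86 (standard error 0.32, limma adjusted p = 0.173), and -0.47 without replicate 1 of the 5-year-old yaks.

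None of the other 9 spindle genes had an unadjusted p-value under 0.05. KIF22 (ENSBGRG00000026007), a chromokinesin that pushes chromosome arms away from the poles, was at 17.2, 17.3 and 16.8 FPKM at 1.5 years and at 13.6, 19.3 and 15.2 FPKM at 5 years. KIF15 (ENSBGRG00000014040), which helps to keep the spindle bipolar, was at 13.7, 10.6 and 15.4 FPKM at 1.5 years and at 7.11, 13.6 and 9.13 FPKM at 5 years. Both overlapped between the ages. KIF11, the main motor that separates the spindle poles, was at 6.29 ± 0.377 FPKM (SD, n = 3) at 1.5 years and 6.76 ± 0.761 FPKM (SD, n = 3) at 5 years, a log2 fold change of 0.10 with a 95% confidence interval from -0.25 to 0.44. KIF20A, needed for cytokinesis, did not overlap between the ages, but its lowest younger library (6.16 FPKM) and its highest older one (6.16 FPKM) were all but equal. The log2 fold changes of KIFC1, KIF18A, KIF18B, KIF14 and KIF4A lay between -0.27 for KIFC1 and 0.38 for KIF4A, and all 5 overlapped.

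Among the 9 cargo transport genes, 3 were lower at 5 years before adjustment (p-value under 0.05), or 33.3% against 10.9% of all genes, and none was higher, against 14.2%. The estimate lay above 0 in 3 others. KIF21B (ENSBGRG00000022375), a kinesin-4 motor that also slows microtubule growth, had the lowest log2 fold change of the 31 tested genes. It was at 16.8, 14.8 and 14.7 FPKM at 1.5 years and at 3.00, 8.35 and 8.16 FPKM at 5 years. All older libraries lay below the younger range, replicate 2 included. The mean was 15.4 ± 1.18 FPKM (SD, n = 3) against 6.50 ± 3.04 FPKM (SD, n = 3), a log2 fold change of -1.37 (standard error 0.38, limma adjusted p = 0.154), and -0.89 without replicate 1 of the 5-year-old yaks.

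Both kinesin light chains with a row had an unadjusted p-value under 0.05. KLC3 (ENSBGRG00000023303), the light chain known from the sperm midpiece, was at 5.73, 5.55 and 5.76 FPKM at 1.5 years and at 2.06, 4.67 and 3.60 FPKM at 5 years. Its younger libraries were close together and all older ones lay below them, with a log2 fold change of -0.78 (standard error 0.28, limma adjusted p = 0.168), and -0.46 without replicate 1 of the 5-year-old yaks. KLC4 (ENSBGRG00000019525) was at 5.16, 3.93 and 4.004 FPKM at 1.5 years and at 2.56, 3.21 and 3.38 FPKM at 5 years. Its ages did not overlap, and the log2 fold change was -0.50 (standard error 0.18, limma adjusted p = 0.170). Without replicate 1 of the 5-year-old yaks its unadjusted p-value from limma was 0.0638. The other KLC4 row, annotated to the mitochondrial ribosome, was at 3.999 to 5.44 FPKM and was left out.

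The genes with estimates above 0 were low. KIF21A, the paralogue of KIF21B, was at 2.68, 1.87 and 1.78 FPKM at 1.5 years and at 4.73, 2.31 and 3.43 FPKM at 5 years. Its log2 fold change of 0.66 (95% confidence interval -0.02 to 1.35) had the opposite sign to that of KIF21B, and replicate 1 of the older yaks was its highest library where it was the lowest for KIF21B. Without that library the log2 fold change of KIF21A was 0.42. KIF13A, a kinesin-3 motor of endosomes, was at 1.01, 1.08 and 0.689 FPKM at 1.5 years and at 1.62, 1.09 and 1.36 FPKM at 5 years, and was the only tested kinesin gene whose libraries all lay higher at 5 years. KIF1C, a kinesin-3 motor as well, had a log2 fold change of 0.35 and overlapped. KIF1B had a mean of 7.06 FPKM and a log2 fold change of -0.08, and the neuronal motors KIF1A and KIF5A stayed under 2 FPKM in every library and overlapped.

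In the remaining group, KIFC3 (ENSBGRG00000015805), a minus-end-directed motor of Golgi and cell junctions, was at 11.9, 11.8 and 12.3 FPKM at 1.5 years and at 8.41, 12.2 and 12.2 FPKM at 5 years. Only replicate 1 of the older yaks lay apart, and the other two lay within the younger range. KIFC2 had a mean of 5.36 FPKM and overlapped, with 2.73 FPKM in replicate 1 of the older yaks against at least 4.91 FPKM elsewhere. The chosen KIF26A row had a mean of 0.715 FPKM and overlapped.

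The older animals differed from each other more than the younger ones. Over the 31 tested kinesin genes the median SD of log2(FPKM + 0.1) was 0.12 at 1.5 years and 0.32 at 5 years, and the SD was larger at 5 years in 25 genes (80.6%, against 73.6% of all genes tested). Set against the mean of the 1.5-year-old yaks, the median difference of the kinesin genes was -0.51, -0.004 and -0.085 in replicates 1, 2 and 3 of the 5-year-old yaks. Over all genes tested it was 0.03, 0.02 and 0.09. In replicate 1, 23 kinesin genes (74.2%) lay below all 3 younger libraries, against 40.4% of all genes. Replicate 2 had 10 such genes (32.3%, against 26.1%) and replicate 3 had 17 (54.8%, against 29.1%). In replicate 2, KIF21B had the lowest difference of the kinesin genes, followed by KIF2B.

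**Figure D4:**
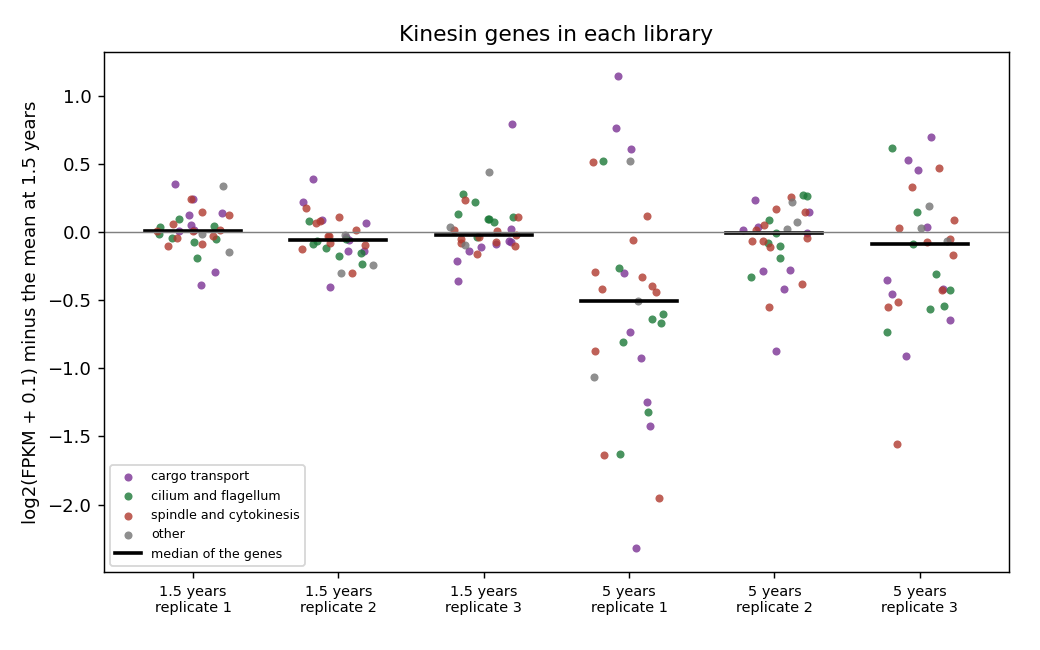
Difference of each tested kinesin gene from the mean of the 1.5-year-old yaks, on the log2(FPKM + 0.1) scale, in each input library. Points are the 31 genes, coloured by function, and black bars are their medians. The median is -0.51 in replicate 1 of the 5-year-old yaks and lies between -0.09 and 0.01 in the other 5 libraries.

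Several marker lists differed most in the same library. The median difference of the 4 elongating spermatid genes from the younger mean was -2.20, -0.48 and -0.72 in replicates 1, 2 and 3 of the 5-year-old yaks, and that of 6 round spermatid genes was -2.05, -0.17 and -1.51. The 6 tested Sertoli cell genes were at 1.32, 0.44 and 0.78, and the 6 peritubular and stromal cell genes at 1.30, 0.32 and 1.00. Spermatocyte genes, 7 of them, were at -0.13, 0.06 and 0.16, and 7 spermatogonial genes at 0.91, 0.06 and 0.25. Leydig cell genes (2 tested, 1 of them lower) were at -0.40, -0.24 and -0.55, macrophage genes (5 tested, 2 lower) at -0.05, -0.48 and 0.45, and 4 endothelial genes at 0.06, 0.19 and 0.12. In these counts lower means an unadjusted limma p-value under 0.05, which 10.9% of all genes tested had in this direction. The single erythroid gene with a row was under the FPKM minimum. No marker gene of these lists was listed at 0 in every library. The part of these shifts in the kinesin values was not tested.

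The values of the 5 kinesin symbols without a chosen row are given for their lowest identifier, a choice made after the values were seen. KIF5C (ENSBGRG00000005336), a heavy chain of the conventional kinesin motor, was at 21.8, 20.4 and 22.2 FPKM at 1.5 years and at 5.75, 17.1 and 11.6 FPKM at 5 years, with no overlap and a log2 fold change of -1.03 (standard error 0.36, limma adjusted p = 0.167), which was -0.61 without replicate 1 of the 5-year-old yaks. KIF9 (ENSBGRG00000015116), a motor of the central pair of motile axonemes, was at 7.99, 9.82 and 6.82 FPKM at 1.5 years and at 3.13, 5.75 and 5.04 FPKM at 5 years, with no overlap and a log2 fold change of -0.84 (standard error 0.26, limma adjusted p = 0.154). Both had the same order of the older animals as KIF17, with replicate 1 lowest and replicate 2 highest. KIF3A (ENSBGRG00000002563), the partner of KIF3B, was at 10.8 to 16.1 FPKM and KIF5B (ENSBGRG00000023175), the ubiquitous heavy chain, at 13.2 to 17.5 FPKM, and both overlapped. A further KIF3A row was at 11.1 to 22.8 FPKM, and the 6 KIF5B rows had means from 1.02 to 15.1 FPKM, so the choice of row matters for these symbols. With the lowest identifier taken for all 37 symbols, 8 of 36 tested genes were lower with an unadjusted p-value under 0.05 (22.2%, against 10.9% of all genes) and none was higher (against 14.2%).

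The deposited table of differential m6A peaks between the ages was searched for the same rows. It lists 1438 peaks that passed the authors' thresholds and gives no value per animal, no fold change and no direction. None of the 32 kinesin genes carried a peak, against 5.63% of all genes of the expression table and 9.29% of those with a mean of at least 0.5 FPKM. With so few members, this difference was not tested. Among the rows left out, 3 carried peaks. The peak on KIF23 (ENSBGRG00000020219), a subunit of the centralspindlin complex of the midbody, is 536 bp wide and lies in exon 18 of 24, at 7605468 to 7606003 on chromosome 11 of LU_Bosgru_v3.0. The gene is on the minus strand, from 7599513 to 7643039. Its expression was 7.74, 8.22 and 6.22 FPKM at 1.5 years and 6.32, 8.0 and 10.6 FPKM at 5 years, so the ages overlapped, with a log2 fold change of 0.14 (95% confidence interval -0.37 to 0.66).

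The other 3 peaks stand under the symbol KIF26A, on rows of chromosome 17 that were not chosen for it. ENSBGRG00000005062 carries 2 peaks in its 3′UTR, at 74943729 to 74943877 and at 74944567 to 74944764 (149 and 198 bp). This row was at 0.569, 0.531 and 0.298 FPKM at 1.5 years and at 1.47, 0.710 and 0.742 FPKM at 5 years. All older libraries lay above the younger ones, with a log2 fold change of 0.89 (95% confidence interval -0.02 to 1.80), or 0.58 without replicate 1 of the 5-year-old yaks. ENSBGRG00000005179, at 0.132, 0.0161 and 0.208 FPKM at 1.5 years and at 0.398, 0.142 and 0.233 FPKM at 5 years, overlapped between the ages and was under the FPKM minimum. It carries a peak of 446 bp at 75090756 to 75091201, which the annotation places in exon 10 of 12 of ENSBGRG00000005221. ENSBGRG00000005221, the row annotated to actin binding, was at 1.67, 1.32 and 2.06 FPKM at 1.5 years and at 6.02, 2.53 and 3.43 FPKM at 5 years, with a log2 fold change of 1.13 (unadjusted p = 0.0106 from limma, adjusted p = 0.154). By their annotation these peaks do not lie on the KIF26A row with kinesin terms.

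The partners of the kinesins were taken from 5 lists of 71 symbols, 62 of which had a row and 60 of which were tested. Of these, 7 were lower and 2 higher at an unadjusted p-value under 0.05 (11.7% and 3.33%, against 10.9% and 14.2% of all genes), and none had an adjusted p-value under 0.05. All 13 tested IFT genes, the cargo trains of kinesin-2, had an estimate below 0 (46.5% of all genes did), with a median log2 fold change of -0.15, and 2 passed the unadjusted test (15.4%, against 10.9% of all genes). The count below 0 was 12 with quantile normalization or without replicate 1 of the 1.5-year-old yaks, and 10 without replicate 1 of the 5-year-old yaks. The share of all genes below 0 was not computed for these settings. IFT80 was at 15.0, 15.0 and 16.7 FPKM at 1.5 years and at 9.90, 13.9 and 11.1 FPKM at 5 years, without overlap, whereas IFT57 (log2 fold change -0.89) overlapped. Spindle and midzone genes had a median of -0.08, and 1 of 15 was lower (6.67%, against 10.9% of all genes). This was KNSTRN, a kinetochore protein, with 74.3, 68.5 and 69.5 FPKM against 25.6, 48.3 and 50.9 FPKM, and a log2 fold change of -0.83, or -0.51 without replicate 1 of the 5-year-old yaks. With 1 library left out, the unadjusted limma p-value of IFT80, IFT57, ACTR10, KNSTRN and KIDINS220 was above 0.05 in at least 1 case each.

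Of the 12 tested cargo adaptors, 2 were lower and 2 higher at an unadjusted p-value under 0.05. This was 16.7% in each direction, against 10.9% and 14.2% of all genes. MAPK8IP1 (JIP1), a scaffold bound by kinesin light chains, was at 9.39, 9.39 and 10.7 FPKM at 1.5 years and at 4.20, 7.71 and 5.89 FPKM at 5 years, without overlap. GRIP1, which links KIF5 to glutamate receptors in neurons, was also lower (log2 fold change -1.06). TRAK1, the adaptor that couples KIF5 to mitochondria, was at 1.71, 1.37 and 1.17 FPKM against 2.96, 2.25 and 2.59 FPKM, and KIDINS220, a cargo of KIF5 motors, at 13.1, 14 and 11.8 FPKM against 24.9, 15.2 and 20.7 FPKM. In both, every older library lay above every younger one (log2 fold changes 0.84 and 0.62). KNSTRN, GRIP1 and KIDINS220 stand on several rows, and the row with the highest mean was taken. Of 8 dynactin genes only ACTR10 was lower, with a log2 fold change of -0.44 (12.5% of these genes, against 10.9% of all genes). Of 12 dynein genes 1 was lower (8.33%, against 10.9% of all genes). It was the row of DYNC1H1 with the highest mean, but this row (ENSBGRG00000014707) carries no GO term. The DYNC1H1 row annotated to the cytoplasmic dynein complex (ENSBGRG00000013418) was at 27.0, 26.8 and 27.0 FPKM at 1.5 years and at 30.9, 27.7 and 33.3 FPKM at 5 years, with a log2 fold change of 0.18 (95% confidence interval -0.14 to 0.51).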

How the data were processed

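FPKM values per gene and input library were deposited by the authors. Trimmomatic, SortMeRNA (rRNA removal) and HISAT2 (2.0.4 per the labels) had been run on the reads, with LU_Bosgru_v3.0 as the genome and unique alignments retained. The program behind the FPKM and the use of strand in counting are not given in the sources used here. Differential peaks were called by the authors with MeTDiff and annotated with ChIPseeker, and their positions and widths in bp were used as deposited.

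The ages were tested two-sided in R 4.3.3 with the limma package, version 3.58.1, using lmFit and a trended eBayes on log2(FPKM + 0.1) of the 12437 genes with a mean of at least 0.5 FPKM, with Benjamini-Hochberg adjustment over all of them. For 1 gene, exact permutation of 3 against 3 animals cannot give a p-value below 0.1. The FPKM of a library summed to between 116187 and 139921. The fragments behind a value are not in the table, so the depth of a value is unknown. Each library is a different animal, and replicate numbers only name the animals. In simulated data of 12437 genes, 200 genes were given a log2 change. Of these 200 genes, 76.5% passed an adjusted p-value of 0.05 for a change of 2 and 12.0% for a change of 1. In the same data, 6.99% and 6.54% of all genes had an unadjusted limma p-value under 0.05, against 25.1% in the 6 input libraries. The simulated data therefore differ from the input libraries, and the power of the comparison between the ages was not tested.

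For a symbol on several rows, the row with a kinesin or microtubule GO term was taken, and the row with the highest mean FPKM where several had one. Partner and marker symbols were taken at their row with the highest mean. Values of every library are given for the 10 kinesin genes with the highest mean, for those with an unadjusted p-value under 0.05 whose ages do not overlap (at most 6 in each direction) and for genes with a peak. Partner genes are named under the same 2 conditions, at most 4 in each direction and list, and KIF20A, KIF11, KIF21A, KIF13A, KIFC2, IFT57, the actin-binding KIF26A row and the second DYNC1H1 row were named after their values were seen. The members and lists were chosen with earlier results of these data known. A list of RefSeq genes was used only to look up symbols, all 37 of which it holds. No sequence is shown, and IP libraries, peak lists of single groups and reads were not analysed here. Alternatives were other pseudocounts, filters, scalings and forms of eBayes, a replicate block, each library left out, and other choices of rows. Summaries and plots were made in Python 3.11.15 (pandas 2.3.3, numpy 2.4.6, matplotlib 3.10.9).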

Additional observations from a re-analysis of the deposited data

How the results depend on the processing

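The median log2 fold change of the kinesin genes (-0.27) ranged from -0.37 without replicate 2 of the 5-year-old yaks to -0.08 without replicate 1, and stayed below 0 under all 17 alternatives. With a single library left out, lower kinesin genes (6) ranged from 2 to 9 and higher ones (0) from 0 to 3. Kinesin genes with an adjusted p-value under 0.05 (0) ranged from 0 to 6. Lower partner genes (7) ranged from 3 to 10 and higher ones (2) from 1 to 6. Over all genes, 4.99% to 18.3% were lower and 8.35% to 21.8% higher in these settings, and 0% to 20.3% had an adjusted p-value under 0.05. Kinesin genes without overlap (9) ranged from 10 to 23. Leaving out a library can only keep or add such genes, and their share over all genes was not computed for these settings. Of all 60 rows 47 were tested. Of these, 8 were lower (17%, against 10.9% of all genes) and 1 was higher (2.13%, against 14.2%). A differential peak was carried by 3 of the 60 rows, against 5.63% of all genes of the expression table. With the lowest identifier of each symbol, an alternative chosen after seeing the data, 1 of 37 carried a peak, against the same 5.63%.

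A replicate block gave 5 lower kinesin genes (KLC4 was lost) and 1 higher (KIF21A). The shares over all genes were not computed for this setting, so these counts have no background. Same-numbered samples were not pairs, since each library is a different animal and replicate numbers only name the animals. Their deviations from the age means correlated at -0.02, -0.09 and 0.01, and those of different numbers at -0.13 to 0.14. These correlations cannot decide on pairing, since the deviations were centred within each age.

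With 3 animals per age and no fragment counts, small changes of low genes were not detectable. The p-values set the difference between the ages against the spread between these animals, pooled over both ages and moderated across genes. They do not separate age from the way of collection.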
